A study of Gallus gallus with 40 samples.

Results

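Severe wooden breast (WB) with mild white striping (WS) was compared with severe WS without WB in birds labelled 45 days or under. The comparison was defined by the sample labels: 7 of the 40 arrays carry this age, 3 from birds with severe WB and mild WS (WB birds below) and 4 from birds with severe WS and no WB (non-WB birds below). Each array holds RNA from the pectoralis major of one side of a single bird. All 7 birds were males from commercial Ross flocks raised in central Thailand, and the labels give no treatment. The fillets had been graded by appearance, and only RNA of high integrity was used. The groups differ in both defects, so that the presence of WB and the lower grade of WS cannot be told apart, and the labels do not give the farm of each bird. RNA was labelled with Cy3 and hybridized to one-color Agilent chicken arrays of 56401 probes that are not controls. Further WB arrays of the series come from birds of 49 days: 2 with severe WB and mild WS, against 3 with mild WS and no WB, and 3 with severe WB and moderate WS, against 4 with moderate WS and no WB.

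Wooden breast is a myopathy of fast-growing broilers in which the breast fillet becomes hard. In affected muscle the large fast glycolytic fibers degenerate and are partly replaced by regenerating fibers, collagen-rich connective tissue and infiltrating macrophages and lymphocytes. White striping shows as white lines of fat and connective tissue that run along the fibers of the same muscle. The 2 defects often occur in the same bird, and this comparison sets one against the other.

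Fast skeletal muscle genes were at high signals in both groups. TNNT3, fast troponin T, had a normalized signal intensity of 213040.3, 198250.0 and 215155 in the WB birds, against 200649.9, 216061, 209029 and 202563 in the non-WB birds. TNNI2, fast troponin I, had 218099, 216061 and 225353 in the WB birds, against 227253, 223766, 233918 and 225353 in the non-WB birds. Values per bird are such intensities on a linear scale, quantile normalized over the WB arrays of the series, and they are listed in the order of replicates 1 to 3 or 1 to 4. Of the 15 TNNT3 probes tested, 5 had a positive and 10 a negative log2 fold change (WB minus non-WB, -0.10 to 0.66). The 4 skeletal muscle markers tested of 7 summed to between 604842 and 632809 in WB birds, against 465228 to 608914 in non-WB birds. Most of the spread of this sum came from 1 probe, that of MYH1A, a myosin heavy chain whose values are given below. Markers of other cells were measured as well. The 5 macrophage markers tested of 6 summed to between 21981 and 89162 in WB birds, against 22104 to 35921 in non-WB birds, and the 5 fibroblast markers tested of 6 to between 169807 and 314094, against 149130.0 and 255972. The 6 T and B cell markers summed to between 7623 and 21183 in WB birds and between 9310.1 and 11294 in non-WB birds. In bulk muscle fewer cells of a type and less RNA per cell cannot be told apart.

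WB replicate 3 did not resemble the other WB birds. The Pearson correlation of log2 signals between WB replicates 1 and 2 was 0.981, and that of WB replicate 3 with them was 0.932 to 0.943. With the 4 non-WB birds WB replicate 3 correlated at 0.968 to 0.978, while WB replicates 1 and 2 did so at 0.936 to 0.960, and the non-WB birds correlated with each other at 0.965 to 0.983. The first principal component held 46.8% of the variance and put WB replicates 1 and 2 at one end and WB replicate 3 beyond the non-WB birds at the other. WB replicate 1 had 2630 probes at least 2-fold above the mean of the non-WB birds and 2192 at least 2-fold below it, of 34515 probes tested. WB replicate 2 had 1990.0 and 1732 such probes. In WB replicate 3 the counts were 521 and 599, and each non-WB bird, set against the mean of its 3 group mates, had between 592 and 1058 above and between 459 and 1212 below. The array of WB replicate 3 was also the dimmest of the 7, with a median processed signal of 122. WB replicates 1 and 2 had the brightest arrays, at 201 and 238, and the non-WB arrays lay at 160 to 176. Spots well above background made up 70.7% in WB replicate 3, 75.3% and 76.4% in WB replicates 1 and 2, and 71.1% to 74.9% in non-WB birds. Array signal thus went with the split of the WB birds, and its part in the calls without WB replicate 3 was not tested. Whether array signal, grading, an exchange of samples or the bird itself sets WB replicate 3 apart was not tested. Values are therefore given with and without this bird. It was singled out by its signals on these same arrays. Leaving it out narrows the spread within the WB birds. The calls without it are therefore no separate support for any gene or list below.

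**Figure D1:**
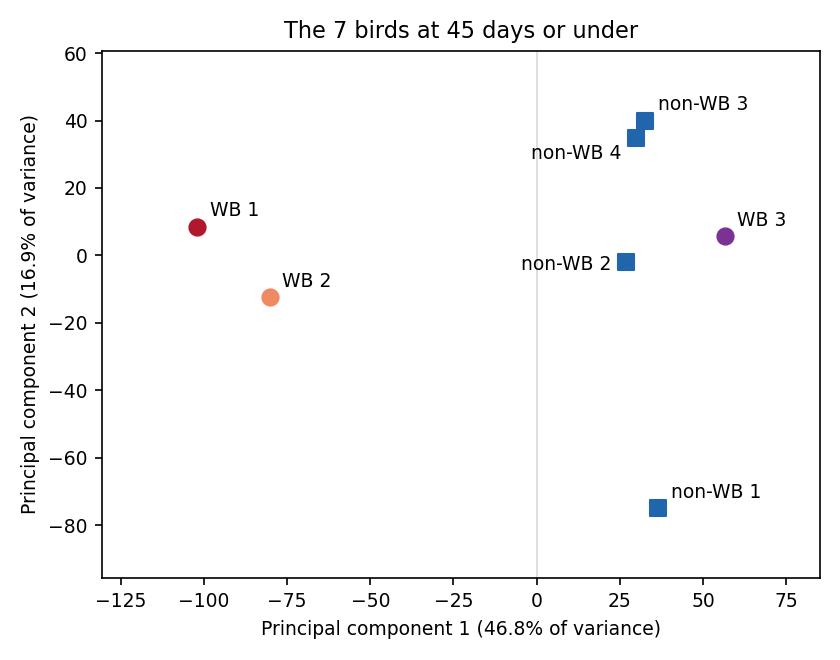
Principal components 1 and 2 of log2 signals of the 7 arrays, with the share of variance on each axis. Red, orange and violet circles are WB replicates 1, 2 and 3, and blue squares are the 4 non-WB birds. WB replicates 1 and 2 lie at -102 and -80.1 on the first component, WB replicate 3 at 56.5 and the non-WB birds between 26.8 and 36.5.

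Position on the slide adds a limit. The 3 WB arrays occupied positions 1 to 3 of a slide and non-WB replicates 1 to 3 positions 4 to 6 of the same slide, so that position and group cannot be told apart. Non-WB replicate 4 lay on another slide. With slide as a factor its signal has no part in the estimate, which compares 3 birds with 3, and it is shown as an additional bird.

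No probe was called different between WB and non-WB birds at an FDR up to 0.05 together with at least a 1.2-fold difference (limma, 34515 probes). Of these probes 15615 had no gene symbol, and the others covered 9923 named genes. The share called was 0.00% in each direction, and the smallest adjusted p was 0.225. Before adjustment 3717 probes had p up to 0.05, all of them past the fold criterion, with 5.58% of the probes higher and 5.19% lower in WB (6.15% and 4.99% of the genes). The methods' t-test used the same probes normalized over the 7 arrays alone, with no slide term and with non-WB replicate 4 included. It called 0 probes as well, with 2074 at p up to 0.05 before adjustment. The log2 fold change (log2FC, WB minus non-WB) had a median of 0.00 over the genes. All 3 WB birds lay above all 4 non-WB birds for 323 genes (3.26%) and below them for 276 genes (2.78%), or 3.10% and 3.17% of the probes. Random order of 3 and 4 birds would give shares of about this size. Lack of overlap alone therefore does not set a gene apart in what follows. Without WB replicate 3 the same fit called 4316 probes, 2269 higher (6.52% of 34812) and 2047 lower (5.88%) in WB. Among the 9923 genes these were 762 higher (7.68%) and 571 lower (5.75%). These calls rest on 2 WB birds, and leaving out any other bird gave 0.

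In WB replicate 3 most genes of that kind did not share the direction of the other WB birds. The 762 genes called higher without it stood at a median of 1.195 and 1.099 log2 units above the mean of the non-WB birds in WB replicates 1 and 2, and at -0.15 in WB replicate 3. In that bird 73 of the 762 were above all 4 non-WB birds, 423 within their range and 266 below all of them. The 571 genes called lower stood at -0.96 and -0.85 in WB replicates 1 and 2 and at 0.13 in WB replicate 3, where 49 were below all non-WB birds, 317 within their range and 205 above them. The same counts were not taken over all genes. Random order would also place a single bird outside the range of 4 others for many genes. The counts are therefore given as description only. The results below fall accordingly into genes on which the 3 WB birds were alike and genes on which WB replicate 3 lay with the non-WB birds.

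The 12 genes with the smallest p among those higher in WB had adjusted p values of 0.225 to 0.287. None passed the test with all birds, and all 12 passed it without WB replicate 3. They were picked by p in these same birds, so that the calls without WB replicate 3 and the lack of overlap are no separate support. NCOA5, a coactivator of nuclear receptors, had a signal of 201, 225 and 225 in the WB birds, against 58.8, 84.5, 85.2 and 63.8 in the non-WB birds. All 3 WB birds were at similar levels above all non-WB birds (log2FC 1.53 ± 0.32, SE). The other of its 2 probes had a log2FC of 0.84, and there the groups overlapped. KRT13, a keratin, gave 76.4, 91.2 and 87.9 in the WB birds, against 33, 35.4, 26.6 and 43.7 in the non-WB birds, again without overlap. GRAMD1B, which carries cholesterol between membranes, had 812, 698 and 738 in the WB birds, against 374, 405, 333 and 524 in the non-WB birds (log2FC 1.02 ± 0.21). RGCC, a regulator of the cell cycle, had 21753, 17624 and 15581 in the WB birds, against 3825, 8336, 2409 and 5259 in the non-WB birds (log2FC 2.09 ± 0.48, adjusted p = 0.287, and 0.0229 without WB replicate 3). CTBS, the lysosomal chitobiase, had 637, 856 and 609 in the WB birds, against 344, 328, 230.1 and 361 in the non-WB birds. CYB561A3, a lysosomal iron reductase, had 9896, 11458 and 6819 in the WB birds, against 5109.8, 5600.3, 4064 and 5138 in the non-WB birds.

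In the other 6 genes of this set WB replicate 3 was the lowest WB bird, as it was for RGCC, CTBS and CYB561A3. EPHA3, an ephrin receptor, had 1738, 1249.9 and 954 in the WB birds, against 651, 584, 528 and 865 in the non-WB birds, where WB replicate 3 and non-WB replicate 4 came close (log2FC 1.12 ± 0.22). MAOB, the monoamine oxidase of the outer mitochondrial membrane, had 1025, 995 and 369 in the WB birds, against 122, 207, 137 and 196 in the non-WB birds. Its log2FC was 2.26 ± 0.47 with all birds and 2.74 ± 0.46 without WB replicate 3. LSAMP, a cell adhesion protein, had 253, 297 and 177 in the WB birds, against 97.3, 75.8, 71.2 and 163 in the non-WB birds. HEPH, the ferroxidase hephaestin, had 6763, 6357 and 2597 in the WB birds, against 1689.7, 1796, 1620.2 and 2961 in the non-WB birds, and non-WB replicate 4 lay above WB replicate 3. PAPSS2, which makes the sulfate donor used for proteoglycans, had 449, 306 and 285 in the WB birds, against 135, 111, 137 and 369.8 in the non-WB birds and overlapped through non-WB replicate 4. ABCG1, a cholesterol exporter, overlapped in the same way with 276, 223 and 158 in the WB birds, against 106, 109, 80.4 and 186 in the non-WB birds. The fold changes leave out non-WB replicate 4. They were 1.502, 1.42 and 1.13 on the log2 scale for HEPH, PAPSS2 and ABCG1, and the difference of the group means over all 7 birds was 1.30, 1.03 and 0.90.

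Among genes lower in WB, BTN1 of the butyrophilin family had the smallest p. Its signal was 2418, 4372 and 2428 in the WB birds, against 11054, 9007, 10605 and 11242 in the non-WB birds, with no overlap (log2FC -1.79 ± 0.33, adjusted p = 0.225, and 0.0171 without WB replicate 3). All 5 BTN1 probes tested had WB below non-WB. Butyrophilin genes are a family of near copies, so that the probes may read related transcripts too. PPP1R3A, the subunit that brings protein phosphatase 1 to glycogen in muscle, had 2206, 2049.8 and 3984 in the WB birds, against 6282, 7209, 4792 and 4312 in the non-WB birds. WB replicates 1 and 2 lay clearly below the non-WB birds and WB replicate 3 just below the lowest of them (log2FC -1.20 ± 0.24). FBXL4, a mitochondrial F-box protein, had 789.7, 542 and 825 in the WB birds, against 1728, 1457, 1441 and 1283 in the non-WB birds, and its 3 probes ran the same way. FBN3, a fibrillin of the matrix microfibrils, had 205, 271 and 229 in the WB birds, against 381, 620.1, 587 and 594 in the non-WB birds. CSPG4, the NG2 proteoglycan of pericytes, had 1219, 1112 and 1644 in the WB birds, against 4485, 2571, 3074 and 2518 in the non-WB birds. Neither of these 2 genes overlapped.

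The remaining genes of this set were DUSP23, AGTPBP1, ORMDL1, PRRG3, RYR3, DEK and SLC4A8. AGTPBP1, which trims glutamate chains from tubulin, had 202, 201 and 266 in the WB birds, against 422, 453, 458 and 831 in the non-WB birds. DUSP23, a protein phosphatase, had 229, 285 and 339 in the WB birds, against 508, 728, 544 and 779 in the non-WB birds. DEK, a chromatin protein, had the log2FC nearest to 0 of the 12 (-0.61 ± 0.15) with 3721, 3588 and 4717 in the WB birds, against 6621, 6158, 5538 and 6914 in the non-WB birds. All 3 WB birds were below all 4 non-WB birds for each of these except SLC4A8, a bicarbonate transporter, where non-WB replicate 4 was at 59.9 and WB replicate 3 at 102. DEK and RYR3 had 3 probes each, all negative, and 2 of the 3 were without overlap. The adjusted p values of the 12 genes lay between 0.225 and 0.391, and between 0.00227 and 0.0303 without WB replicate 3. These genes too were picked by p in the same birds, so that the lower values are no separate support.

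**Figure D2:**
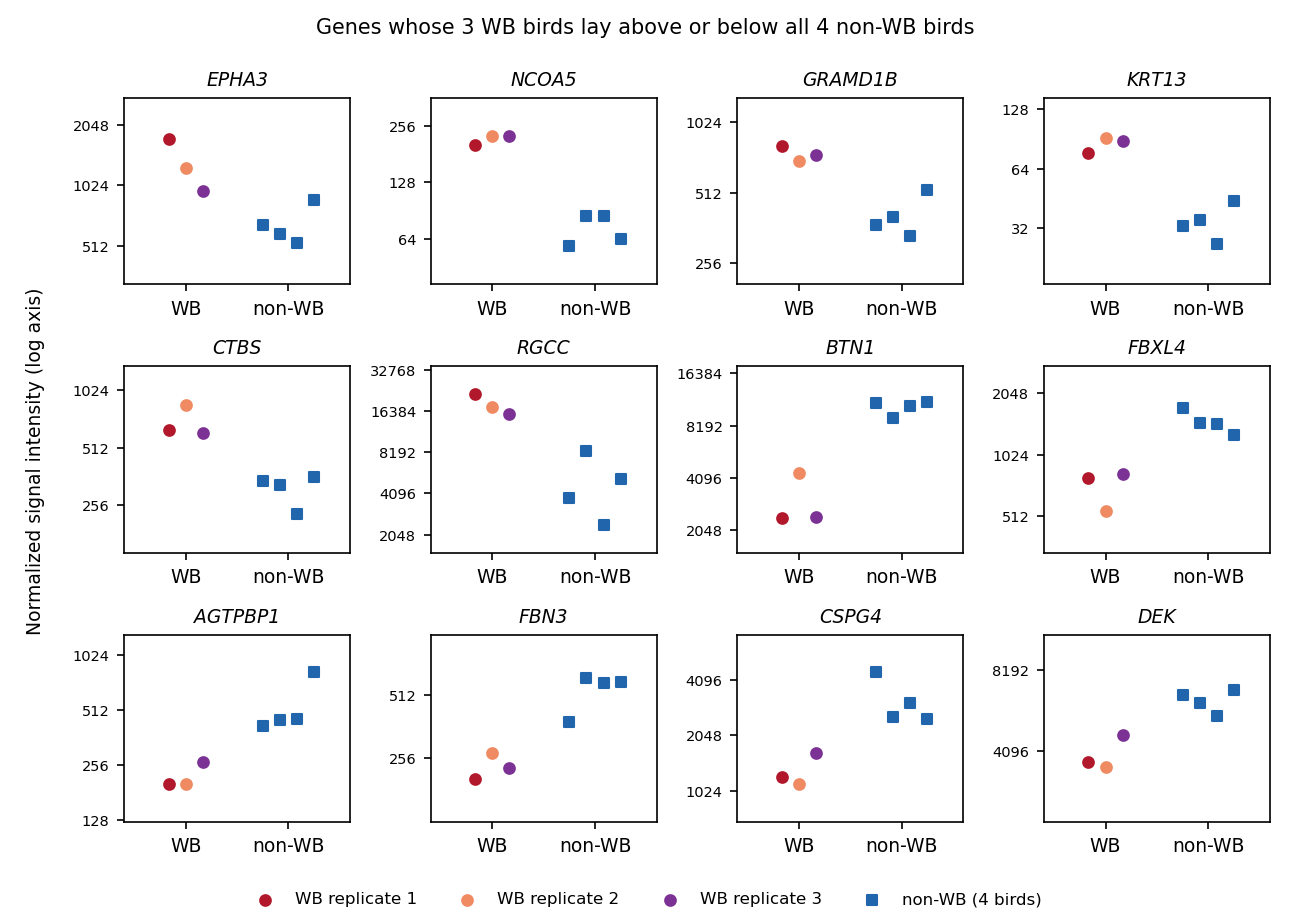
Normalized signal intensity per bird on log axes for 12 genes of the smallest-p sets whose WB birds do not overlap the non-WB birds. Circles are WB replicates 1 to 3 (left in each panel) and squares the 4 non-WB birds (right), and there are no error bars because each point is a bird. In NCOA5 all WB birds are at 201 to 225 and all non-WB birds at 58.8 to 85.2, and in BTN1 the WB birds are at 2418 to 4372 and the non-WB birds at 9007 to 11242.

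Genes of slow, cardiac and embryonic muscle had the largest list median, and it came from WB replicates 1 and 2. Adult fast breast fibers make little of these proteins, while slow and newly formed fibers do. Of 27 genes of this list 16 were tested, and their median log2FC was 1.41, against 0.00 over all genes. By bird, the median difference from the non-WB mean was 2.90, 2.13 and -0.44 in WB replicates 1, 2 and 3. With all birds no member was called, and without WB replicate 3 it was 10 of 16 higher and 0 lower, beside 7.68% and 5.75% of all genes. The 10 were CSRP3, TNNT2, TNNI1, MYL10, ANKRD2, MYH15, TPM3, MYOZ2, FHL1 and SMPX. CSRP3, the muscle LIM protein of the Z-disc, had 19139.9, 16198 and 679 in the WB birds, against 157, 3034, 501 and 313 in the non-WB birds. Its log2FC was 3.26 ± 1.23 (adjusted p = 0.433) with all birds and 4.81 ± 1.04 (adjusted p = 0.0144) without WB replicate 3. TNNT2, the cardiac and embryonic troponin T, had 42217, 16594 and 1686 in the WB birds, against 918, 5364, 2456 and 4399.9 in the non-WB birds. TNNI1, the slow troponin I, had 2819, 699 and 87.3 in the WB birds, against 29.8, 259.8, 129.6 and 144 in the non-WB birds. MYL10, a regulatory myosin light chain, had 2706, 752 and 27.5 in the WB birds, against 25.1, 93.7, 72.4 and 73.5 in the non-WB birds. ANKRD2, a stretch-responsive protein of slow muscle, had 71466, 23957 and 4514 in the WB birds, against 939.6, 6124, 6719.7 and 4583 in the non-WB birds. In each of these 5 genes WB replicates 1 and 2 exceeded all 4 non-WB birds and WB replicate 3 lay among them. Non-WB replicate 1 was the lowest of the 7 birds in all 5 and non-WB replicate 2 the highest of its group in all but ANKRD2.

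Regeneration genes of muscle gave a smaller shift of the same form. Of 24 genes 16 were tested, with a median log2FC of 0.38, and 3 were called higher and 0 lower without WB replicate 3, beside 7.68% and 5.75% of all genes. CHRNG and CHRND encode the gamma and delta subunits of the acetylcholine receptor, of which gamma belongs to the embryonic form of the receptor. CHRNG had 18891, 6370.0 and 1299 in the WB birds, against 673, 2388, 943 and 1989.9 in the non-WB birds. CHRND had 4018, 2345 and 1030.1 in the WB birds, against 684, 1841, 869.7 and 1066 in the non-WB birds. The third was NCAM1, an adhesion molecule of regenerating and denervated fibers, with 3733, 1969 and 1199 in the WB birds, against 1356, 1161, 1333 and 1917 in the non-WB birds. PAX7 and MYOD1 mark and direct satellite cells, the stem cells of muscle. PAX7 had 426, 573 and 387 in the WB birds, against 501, 585, 669 and 425 in the non-WB birds. MYOD1 had 24714, 34284 and 21458 in the WB birds, against 32012, 30640.0, 33636 and 10646 in the non-WB birds. The groups overlapped for both. MSTN, myostatin, an inhibitor of muscle growth, was highest in WB replicate 3, with 2174, 2537 and 4573 in the WB birds, against 1337, 1728, 1602 and 2206 in the non-WB birds (log2FC 0.92 ± 0.36, adjusted p = 0.433).

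Among the muscle fiber markers 11 of 20 were tested. Their median log2FC was -0.05. Without WB replicate 3, 2 were called lower, MYBPC2 and ACTN2, and 0 higher, beside 5.75% and 7.68% of all genes. MYH1B, a fast myosin heavy chain, had 85630.5, 83582 and 63215 in the WB birds, against 8503, 44454, 28062 and 29932 in the non-WB birds, with no overlap and an adjusted p of 0.433. MYH1A had 201569, 199146 and 163867 in the WB birds, against 37280.4, 169053, 108816 and 109284 in the non-WB birds. The myosin heavy chain genes are near copies, and their probes may share transcripts. Non-WB replicate 1 was the lowest bird for both. MYBPC2, the fast myosin-binding protein C, had 33099, 47615 and 93166 in the WB birds, against 88959, 84135, 82780.0 and 109774 in the non-WB birds and was called lower without WB replicate 3 (log2FC -1.10 ± 0.27, adjusted p = 0.0214). MB, myoglobin, had 17944, 19397 and 2098 in the WB birds, against 1309, 8739.6, 3748 and 3749 in the non-WB birds, and neither fit called it.

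Collagen genes had a positive median in WB replicates 1 and 2 (0.55 and 0.54 log2 units from the non-WB mean) and a negative one in WB replicate 3 (-0.15). Of 29 collagens and enzymes of collagen processing 24 were tested, 20 of them with a positive log2FC, beside 4943 of the 9923 genes. Their median was 0.25, and 5 were called higher and 0 lower without WB replicate 3, beside 7.68% and 5.75% of all genes. They were COL1A2, COL5A1, COL12A1, PLOD2 and FKBP10. COL12A1, a collagen that associates with fibrils, was above all non-WB birds in all 3 WB birds, with 9926, 7454 and 2524 in the WB birds, against 1751, 1473, 1815 and 1351 in the non-WB birds. Its log2FC was 1.77 ± 0.69 (adjusted p = 0.433), and all 5 probes were positive. PLOD2, the lysyl hydroxylase of collagen cross-links, had 13282, 8520.1 and 3344 in the WB birds, against 3228, 2975, 3690.5 and 2666 in the non-WB birds, with WB replicate 3 among the non-WB birds. COL1A2, a chain of the main fibril collagen, had 70456, 61758 and 21235 in the WB birds, against 56852, 17638, 21633 and 25378 in the non-WB birds, where non-WB replicate 1 came close to WB replicate 2. COL3A1 had 159141, 155582 and 119658 in the WB birds, against 153265, 121397, 104921 and 134879.8 in the non-WB birds, a log2FC of 0.20 ± 0.17. COL18A1, a basement membrane collagen, ran the other way with 3980.0, 5356 and 3832 in the WB birds, against 7387, 6102, 6605 and 7423 in the non-WB birds and no overlap (log2FC -0.62 ± 0.19, adjusted p = 0.433, and 0.105 without WB replicate 3).

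In the list of matrix glycoproteins and proteoglycans 25 of 35 genes were tested, with a median log2FC of 0.22 and with 7 called higher and 1 lower without WB replicate 3, beside 7.68% and 5.75% of all genes. MMP9, a gelatinase made by macrophages and neutrophils, had a log2FC of 3.85 ± 1.12 with all birds (adjusted p = 0.433) and 5.53 ± 0.76 without WB replicate 3 (adjusted p = 0.00414). Its signal was 12049, 9081 and 307 in the WB birds, against 84.7, 292, 453 and 949 in the non-WB birds. VCAN, versican, a proteoglycan of provisional matrix, had 804, 1144 and 247 in the WB birds, against 206, 305, 335 and 223 in the non-WB birds. FBLN1, fibulin, had 4542, 2874 and 814 in the WB birds, against 1637, 694, 598 and 614 in the non-WB birds. WB replicates 1 and 2 were above all non-WB birds for these 3 genes and WB replicate 3 within their range. LUM and DCN, small leucine-rich proteoglycans on collagen fibrils, were called higher without WB replicate 3 (log2FC 1.41 ± 0.30 and 1.31 ± 0.28), and LUM had 27146, 19902 and 6927 in the WB birds, against 11140.2, 8319, 7259.7 and 8014 in the non-WB birds. FN1, fibronectin, and MMP2, another gelatinase, were also called higher, and MFAP5, a microfibril protein, lower. FMOD, fibromodulin, which also binds fibrils, had 999, 1439 and 8379 in the WB birds, against 21915, 2492, 4629.8 and 3389 in the non-WB birds, and neither fit called it.

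TGF-beta signals, which drive fibroblasts to make matrix, had a median log2FC of 0.08 over 22 of 26 genes tested, and 3 were called higher and 0 lower without WB replicate 3, again beside 7.68% and 5.75% of all genes. TGFB3 had 84397, 111024 and 12800.3 in the WB birds, against 24312, 24569, 24804 and 28695 in the non-WB birds. WB replicate 3 was below every other bird for this ligand, and WB replicates 1 and 2 were above every one of them. TGFBR2, the type II receptor, had 3913, 4886 and 1913 in the WB birds, against 2000.4, 2441, 1902 and 2350.3 in the non-WB birds. BAMBI, a pseudoreceptor that blocks the pathway, had 305, 361 and 91.5 in the WB birds, against 252, 89.6, 132 and 164 in the non-WB birds. The fibroblast markers had a median log2FC of 0.21 over 9 of 13 genes tested. Without WB replicate 3, 4 were called higher, PDGFRA, FAP, THY1 and S100A6, and 0 lower, beside 7.68% and 5.75% of all genes. In the fit with all birds 6 of the 9 were positive, and DPT, ACTA2 and TAGLN were negative (log2FC -0.42, -1.58 and -1.07). THY1, a surface protein of fibroblasts, had 18784, 16996 and 3338 in the WB birds, against 5922, 5560.3, 5131 and 5772 in the non-WB birds. S100A6, a calcium-binding protein, had 128121, 113097 and 15406 in the WB birds, against 25909, 37245, 28626 and 21282 in the non-WB birds. WB replicate 3 was below all non-WB birds for both.

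Non-WB replicate 1 had the highest signal of the 7 birds for ACTA2, TAGLN and ELN, which were named together after their values were seen. ACTA2, smooth muscle actin, had 4177, 3993 and 4180.4 in the WB birds, against 52852, 3603, 9771 and 8308 in the non-WB birds. TAGLN, transgelin, had 26856, 15074 and 16543 in the WB birds, against 170555, 11665, 31382 and 34156 in the non-WB birds. ELN, elastin, had 8694, 15315 and 12426 in the WB birds, against 165918, 12282, 19343 and 19770.5 in the non-WB birds. Their log2FC were -1.58 ± 0.74, -1.07 ± 0.74 and -1.52 ± 0.73, and -0.53, -0.02 and -0.38 without non-WB replicate 1. INHBA, a subunit of activin, was also highest in it, with 133, 198 and 141 in the WB birds, against 875, 272, 168 and 143 in the non-WB birds.

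Macrophage genes showed the second largest list shift. Of 37 genes for macrophages, complement, antigen presentation and lysosomes 25 were tested. Their median log2FC was 0.83, 23 of the 25 were positive, and 16 were called higher and 0 lower without WB replicate 3, beside 7.68% and 5.75% of all genes. The median difference from the non-WB mean was 1.16 and 1.26 in WB replicates 1 and 2, and -0.17 in WB replicate 3. SPP1, osteopontin, a secreted protein of activated macrophages, had 72021, 63215 and 7144 in the WB birds, against 2675, 10847, 7719 and 6438 in the non-WB birds. LGALS3, galectin 3, had 19518, 19673 and 1819 in the WB birds, against 1568, 3058, 4159 and 3154 in the non-WB birds. CTSS, cathepsin S, a protease of antigen-presenting cells, had 57681, 64149.5 and 11379 in the WB birds, against 19710.0, 21753, 11757 and 14223 in the non-WB birds. In these 3 genes WB replicates 1 and 2 exceeded all non-WB birds at least 2-fold, and WB replicate 3 did not exceed the highest of them. C1QA, a chain of complement C1q, had 15093, 12129 and 6136 in the WB birds, against 7099, 8098, 5709 and 6284 in the non-WB birds. BF1 and BF2, the class I genes of the chicken MHC, are in the same list. BF1 had 90563, 93489.9 and 83334 in the WB birds, against 23957, 10469, 41765 and 113097 in the non-WB birds. BF2 had 61558, 64344 and 52077 in the WB birds, against 18548, 8511, 27418 and 91203 in the non-WB birds. All 3 WB birds exceeded non-WB replicates 1 to 3 for both genes, and non-WB replicate 4 was higher than any WB bird. The BF genes are close copies that vary between birds, so that a probe of one may read the other. CTSB, cathepsin B, and IL18, an inflammatory cytokine, were the 2 members of 25 with all 3 WB birds above all 4 non-WB birds, beside 3.26% of all genes.

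Lymphocyte markers followed with 13 of 17 genes tested and a median log2FC of 0.50. Without WB replicate 3, 6 were called higher and 0 lower, beside 7.68% and 5.75% of all genes. The 6 were CD3D, CD3E, CD28, CD5, PTPRC and IL7R. CD3D, a chain of the T cell receptor complex, had 17705, 14371 and 6048 in the WB birds, against 9117, 7981, 7597 and 8617 in the non-WB birds. Its partner CD3E had 1696, 2002 and 811 in the WB birds, against 1089, 954, 932 and 1037 in the non-WB birds. CD28, the T cell costimulator, had 309.9, 251 and 45.7 in the WB birds, against 101, 90.7, 76.5 and 128 in the non-WB birds. WB replicate 3 was the lowest of the 7 birds for all 3 genes. LCK, the kinase that signals from the T cell receptor, was above all non-WB birds in all 3 WB birds, with 60, 58.1 and 67.5 in the WB birds, against 40.5, 30.6, 38.3 and 39.2 in the non-WB birds at these low signals (log2FC 0.77 ± 0.25, adjusted p = 0.433). XCL1, the chemokine lymphotactin, ran the other way and was below all non-WB birds in all 3 WB birds. It lay at -1.12, -0.40 and -0.58 log2 units from the non-WB mean (log2FC -0.78 ± 0.40, limma, adjusted p = 0.485). CD8A, of cytotoxic T cells, had 83.4, 171 and 71.7 in the WB birds, against 207, 120.1, 57.8 and 72.7 in the non-WB birds.

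**Figure D3:**
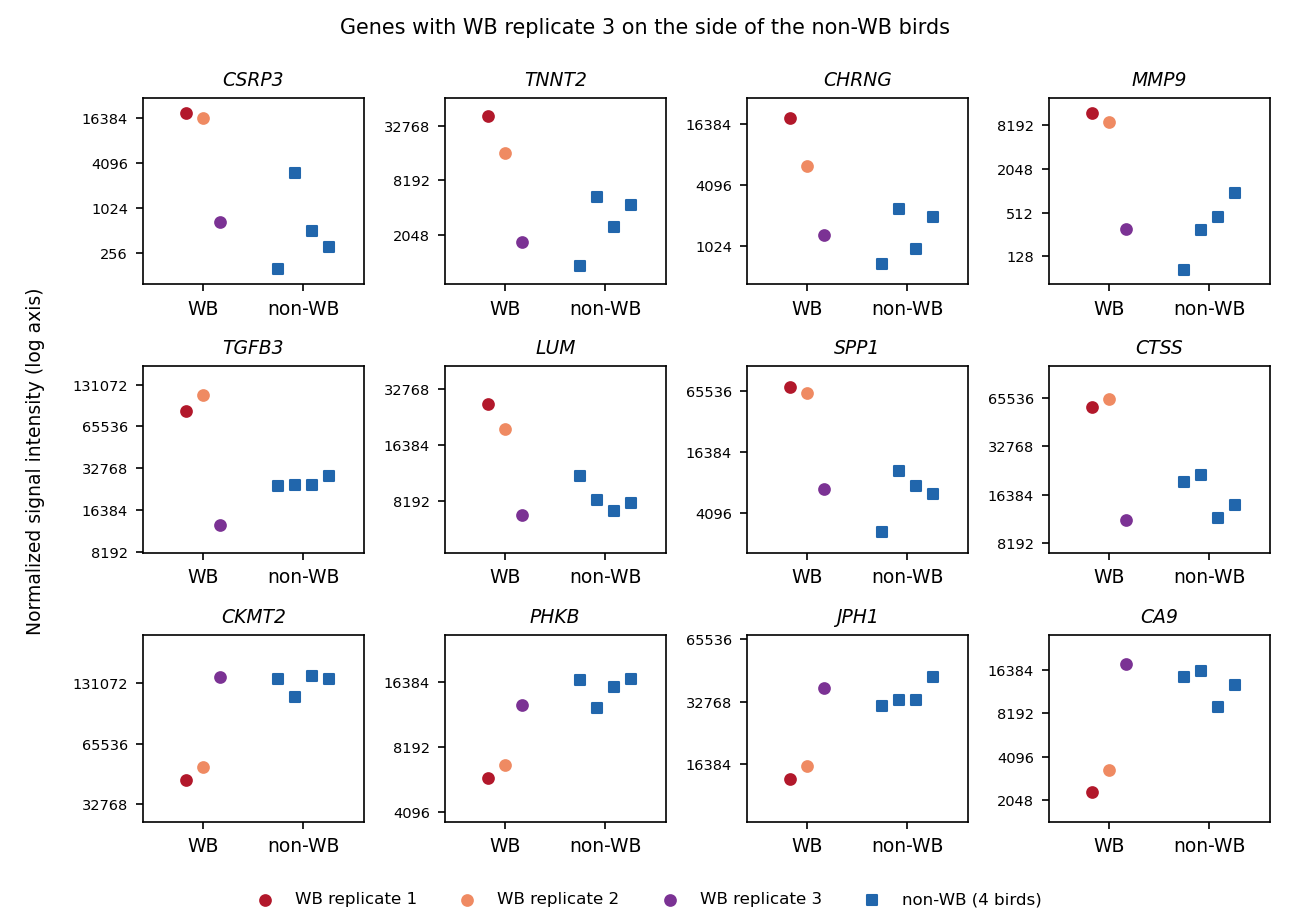
Normalized signal intensity per bird on log axes for 12 listed genes in which WB replicates 1 and 2 lie apart from WB replicate 3. Circles are WB replicates 1 to 3 (left in each panel) and squares the 4 non-WB birds (right), with no error bars because each point is a bird. For MMP9 WB replicates 1 and 2 are at 12049 and 9081 and WB replicate 3 is at 307, within the 84.7 to 949 of the non-WB birds, and for CKMT2 they are at 43068 and 50188 and WB replicate 3 is at 141005.

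Genes of energy metabolism had negative medians in WB replicates 1 and 2, at -0.51 and -0.30 for glycolysis and glycogen and -0.32 and -0.44 for the respiratory chain, against -0.02 and 0.03 in WB replicate 3. The breast muscle works mainly by glycolysis on its own glycogen. For glycolysis and glycogen 27 of 35 genes were tested, with a median log2FC of -0.28, and 10 were called lower and 5 higher without WB replicate 3, beside 5.75% and 7.68% of all genes. PHKB, a subunit of phosphorylase kinase, which starts glycogen breakdown, had 5909.6, 6774 and 12891 in the WB birds, against 16815, 12432, 15581 and 17039.9 in the non-WB birds. PHKA1, another subunit of this kinase, had 12194, 20208 and 43526 in the WB birds, against 34984, 37131, 46950.2 and 53303 in the non-WB birds. WB replicates 1 and 2 were below all non-WB birds for both genes, and WB replicate 3 was within the non-WB range for both. PHKB, PHKA1 and PPP1R3A were called lower without WB replicate 3, with log2FC of -1.22 ± 0.22, -1.32 ± 0.32 and -1.49 ± 0.20. The 5 called higher were ALDOC, ENO1, ENO2, LDHB and PFKFB4. ENO2, the neuronal enolase, ran the other way with 1332, 867 and 109 in the WB birds, against 104, 386, 153 and 108 in the non-WB birds.

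For the respiratory chain and the citrate cycle 33 of 37 genes were tested and 4 had a positive log2FC. The median was -0.25, and 9 were called lower and 0 higher without WB replicate 3, beside 5.75% and 7.68% of all genes. CKMT2, the mitochondrial creatine kinase of muscle, had 43068, 50188 and 141005 in the WB birds, against 138125, 111984, 142556 and 137719.7 in the non-WB birds. SDHA, the flavoprotein of succinate dehydrogenase, had 4764, 4482 and 8555 in the WB birds, against 9297, 8477, 7855 and 9440.2 in the non-WB birds. IDH3A of isocitrate dehydrogenase had 5727, 4326 and 10941 in the WB birds, against 9987, 9292, 11419.6 and 11219 in the non-WB birds. OGDH of oxoglutarate dehydrogenase had 733, 624 and 1442 in the WB birds, against 1628, 1593, 1499 and 1287 in the non-WB birds. NDUFS1 of complex I had 7805, 8608 and 13926 in the WB birds, against 13172, 12519, 16239 and 14305 in the non-WB birds. Each of these 5 genes had WB replicates 1 and 2 below all non-WB birds and WB replicate 3 within their range. The other 4 called lower were NDUFA9, FH, MDH2 and SLC25A4.

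Calcium handling, which couples the nerve signal to contraction, had a median log2FC of -0.17 over 23 of 30 genes. Without WB replicate 3, 4 were called lower, RYR3, JPH1, SRL and PPP3CA, and 1 higher, S100A1, beside 5.75% and 7.68% of all genes. RYR3, a calcium release channel of the sarcoplasmic reticulum, had 6000.4, 4639 and 11886 in the WB birds, against 15139, 12783, 14725 and 13792 in the non-WB birds. JPH1, which anchors the reticulum to the surface membrane, had 13938, 16097 and 38247 in the WB birds, against 31331, 33257, 33431 and 42777 in the non-WB birds. SRL, sarcalumenin, a calcium-binding protein within the reticulum, had 54553, 68285 and 124422 in the WB birds, against 118305, 96676, 139446 and 126958 in the non-WB birds. CAPN3, the muscle calpain, was below, and in WB replicate 3 only just below, all non-WB birds in all 3 WB birds, with 2434, 2944 and 5224 in the WB birds, against 5263, 7509, 7180.2 and 5311 in the non-WB birds (log2FC -0.97 ± 0.34, adjusted p = 0.433). TRIM63, a ubiquitin ligase of muscle atrophy, overlapped, with 211846, 152588 and 185524 in the WB birds, against 137719.7, 147748, 158369 and 180691 in the non-WB birds. Of the 22 proteolysis and atrophy genes tested 1 was called higher, CAST, the calpain inhibitor, and 1 lower, CAPN3, without WB replicate 3, below the 7.68% and 5.75% of all genes.

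Chaperones were the list with the most genes on which all WB birds exceeded all non-WB birds. Of 31 genes for heat shock and the unfolded protein response 27 were tested, and 5 had all 3 WB birds above all 4 non-WB birds, beside 3.26% of all genes. They were HSP90B1, HSPD1, HSPH1, PDIA3 and PDIA4. The median log2FC was 0.05. HSPH1, a heat shock protein of the HSP110 family, had 1370.2, 2073 and 1509 in the WB birds, against 848, 1024, 837 and 648 in the non-WB birds (log2FC 0.85 ± 0.23, adjusted p = 0.433, and 0.0369 without WB replicate 3). PDIA4, a disulfide isomerase of the endoplasmic reticulum, had 3136, 3099 and 2219 in the WB birds, against 1846, 1789.6, 1856 and 1443 in the non-WB birds. The small heat shock proteins HSPB7 and CRYAB overlapped, with 64970.5, 52852 and 32076 in the WB birds, against 22242, 16553, 39677 and 14490.3 in the non-WB birds for HSPB7. DNAJA1, a co-chaperone, had 4735, 7313 and 16247 in the WB birds, against 16116, 14639, 14752 and 13040.0 in the non-WB birds. It and HSPA4 were called lower, and HSPH1 and PDIA3 higher, without WB replicate 3, beside 5.75% and 7.68% of all genes.

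Hypoxia genes had a median log2FC of 0.04 over 18 of 20 genes. CA9, a carbonic anhydrase, had 2313, 3330.2 and 18103 in the WB birds, against 14795, 16331, 9085 and 12866 in the non-WB birds. It was called lower without WB replicate 3 (adjusted p = 0.0291), and NDRG1 was called higher. These were 1 gene in each direction, beside 5.75% and 7.68% of all genes. HIF1A, the oxygen-sensitive factor, had 2765, 2406 and 1428 in the WB birds, against 1597, 1285, 1491 and 1899.9 in the non-WB birds. Endothelial and vessel wall genes had a median of -0.38 over 14 of 21 genes, and this list was negative in each WB bird, at -0.34, -0.42 and -0.41. The lists for glycolysis and glycogen, calcium handling, and nerve and Schwann cells were also negative in each WB bird. APLN, apelin, a vascular peptide, had 1375, 2051 and 1593 in the WB birds, against 3967, 2283, 2439 and 6487 in the non-WB birds. ANGPT2, angiopoietin 2, had 1121, 855 and 971 in the WB birds, against 1627, 1156, 1494 and 1456 in the non-WB birds. Neither overlapped, and their adjusted p values were 0.49 and 0.601 (limma). They were the 2 of 14 members with all 3 WB birds below all 4 non-WB birds, beside 2.78% of all genes. In this list EDNRA, an endothelin receptor, was called higher and RGS5, of pericytes, lower without WB replicate 3, beside 7.68% and 5.75% of all genes. The endothelial markers PECAM1, CDH5 and KDR summed to between 16183 and 18253 in WB birds and between 16257 and 24582 in non-WB birds.

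Genes of fat cells overlapped between the groups. The stripes of WS contain fat, and the non-WB birds carried the severe grade. Of 27 adipocyte and lipid handling genes 21 were tested, with a median log2FC of 0.04. ADIPOQ, adiponectin, made by fat cells, had 14189, 13292 and 18665 in the WB birds, against 25841, 11634, 21583 and 18401 in the non-WB birds. PLIN1, which coats fat droplets, had 1208, 6347 and 3786 in the WB birds, against 12024, 3443, 2747 and 7266 in the non-WB birds. FABP4, the fatty acid carrier of fat cells, had 57228, 85630.5 and 30534 in the WB birds, against 119658, 32739, 40586 and 50309 in the non-WB birds. These 3 overlapped widely, with SE of 0.33, 0.69 and 0.54 beside log2FC of -0.29, -0.66 and -0.03. LPL, the lipase that frees fatty acids from lipoproteins, was above all non-WB birds in all WB birds, with 4228, 5155 and 4599 in the WB birds, against 2735, 3581, 2493 and 2932 in the non-WB birds (log2FC 0.68 ± 0.23, adjusted p = 0.433). ACSL1, which activates fatty acids, was below all of them in all WB birds, with 5338, 5643 and 7977 in the WB birds, against 12331, 9688, 11079.7 and 10112 in the non-WB birds (log2FC -0.82 ± 0.22, adjusted p = 0.433, and 0.017 without WB replicate 3).

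Of the other lists, oxidative stress and glutathione had 4 of 25 genes called higher and 0 lower without WB replicate 3, namely GPX1, GPX7, GSR and TXN, beside 7.68% and 5.75% of all genes. GSR, glutathione reductase, had 5539, 6886 and 2357 in the WB birds, against 2581, 2452, 3013 and 1708 in the non-WB birds. Cell division gave 1 of 22 higher (MCM2) and 0 lower, circadian clock genes 0 of 14 higher and 1 lower (CIART), and the 9 interferon genes, 6 erythrocyte markers and 7 nerve and Schwann cell markers 0 in either direction. The nerve and Schwann cell list had the most negative median log2FC of the lists, -0.57, with 1 of 7 genes positive. It was negative in each WB bird, at -0.67, -0.42 and -0.18. Erythrocyte signal differed widely within each group. HBBA, a beta globin, had 29552, 44217 and 14135 in the WB birds, against 34821, 8766, 43629 and 23879 in the non-WB birds.

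**Figure D4:**
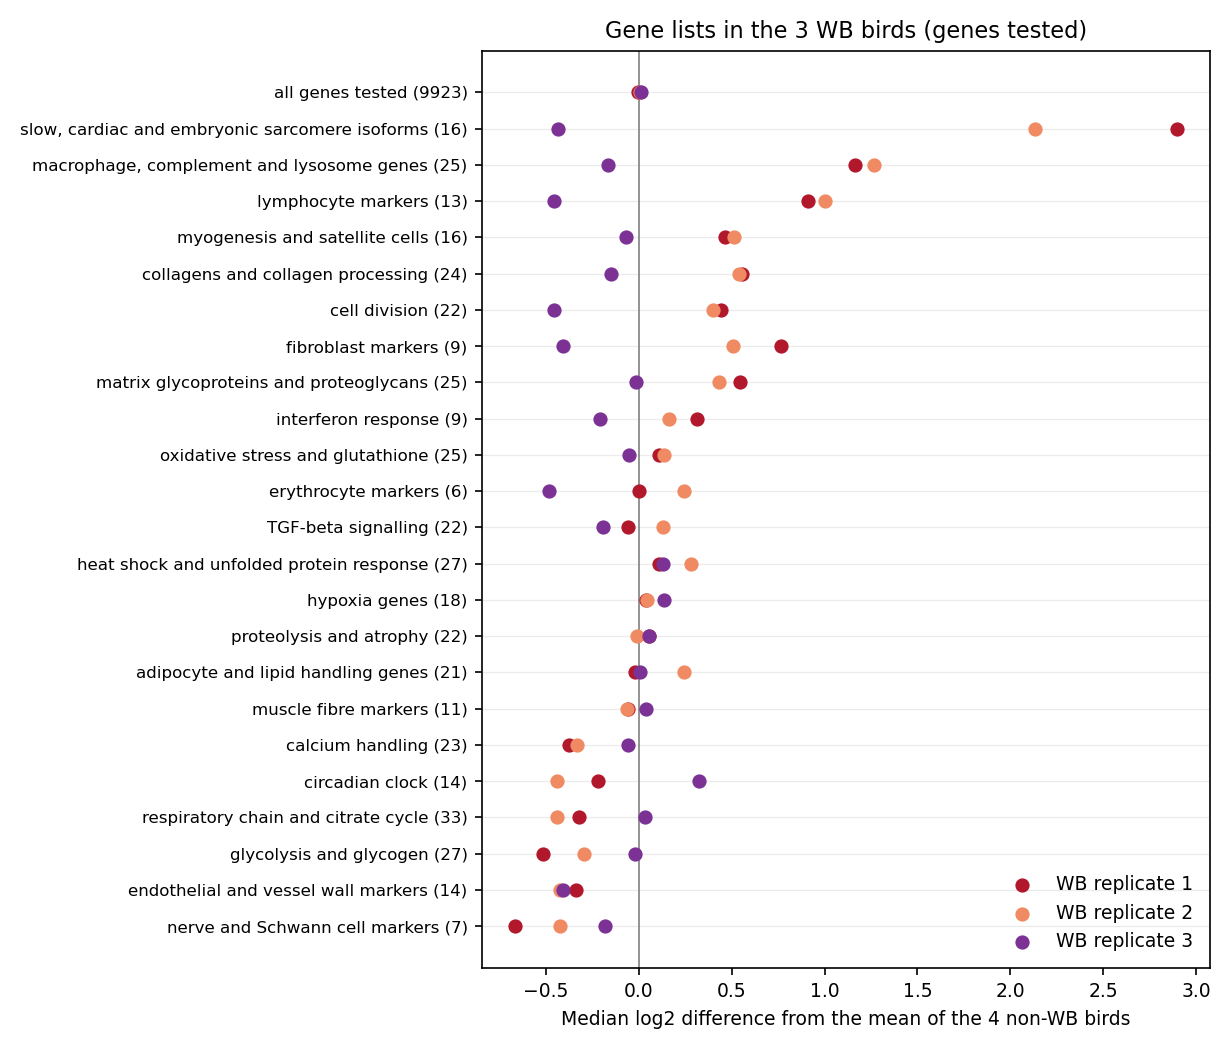
Median log2 difference of each WB bird from the mean of the 4 non-WB birds, over the tested genes of each list (number in parentheses). Red, orange and violet points are WB replicates 1, 2 and 3, and the top line gives all genes tested. WB replicate 3 lies between -0.48 and 0.32 for all lists, while WB replicates 1 and 2 reach 2.90 and 2.13 in the slow, cardiac and embryonic list.

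The contrast at 49 days with mild WS rests on other birds and shares no array with the comparison above. It was tested in the same fit, so that its normalization and its estimate of spread also draw on the birds of 45 days or under. Its calls are therefore not fully separate from those birds. Its 5 arrays lay on the slide that also held non-WB replicate 4, with the WB birds at positions 1 and 2 and the non-WB birds at positions 3 to 5, so that position and group cannot be told apart there either. It called 568 genes higher (5.72% of 9923) and 541 lower (5.45%) in WB (limma, same fit), or 4.67% and 5.88% of the probes. Of the 568 genes 92.3% had a positive log2FC at 45 days or under, beside 49.8% of all genes, with a median of 0.40, and 37 of them had all 3 WB birds above all 4 non-WB birds, beside 3.26% of all genes. Of the 541 genes 92.4% were negative, with a median of -0.40, and 31 had all 3 WB birds below, beside 2.78% of all genes. By bird, the genes called higher at 49 days lay above the non-WB mean for 93.3% in WB replicate 1, for 98.1% in WB replicate 2 and for 30.1% in WB replicate 3. The genes called lower lay below it for 94.3%, 97.0% and 30.9%. Their median differences were 0.69, 0.74 and -0.13 log2 units for the higher genes, and -0.70, -0.71 and 0.12 for the lower genes. Against non-WB replicates 1 to 3 alone the genes called higher lay above the mean for 91.9%, 97.4% and 27.1%, and those called lower below it for 93.0%, 96.5% and 27.5%. WB replicates 1 and 2 had the signs of the WB birds of 49 days, and WB replicate 3 had the opposite sign, for most of these genes. In both contrasts the WB arrays preceded the non-WB arrays on their slide. Apart from WB replicate 3, the WB arrays were also the brighter ones in both. At 49 days with mild WS the median processed signal was 273 and 298 in WB birds, against 140 to 179 in non-WB birds. The parts of position and array signal in these shared signs were not tested.

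**Figure D5:**
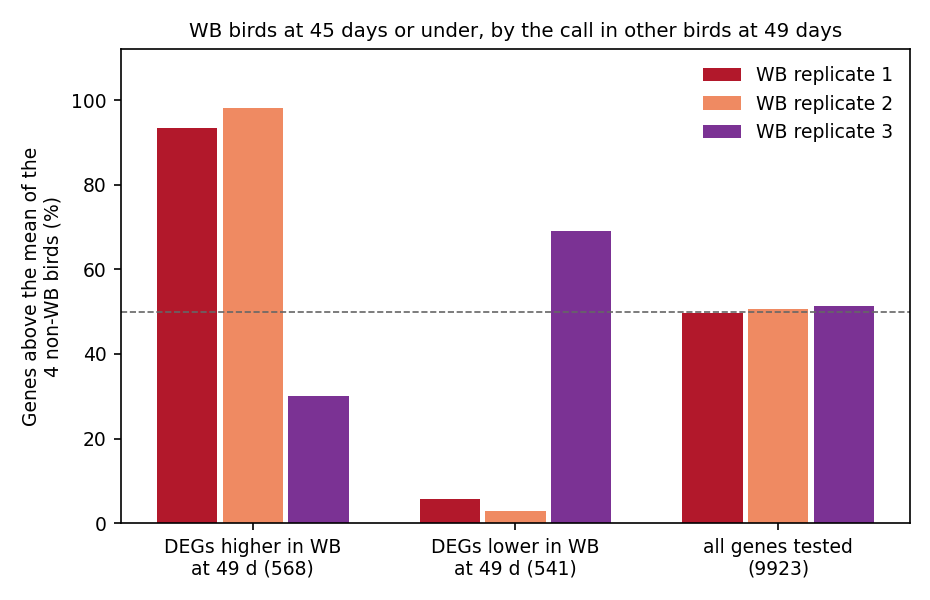
Percent of genes with a signal above the mean of the 4 non-WB birds in each WB bird of 45 days or under, for genes called higher (568) or lower (541) in WB in other birds at 49 days with mild WS and for all genes tested (9923). Bars are single birds without error, and the dashed line marks 50%. WB replicate 3 is at 30.1% and 69.1%, against 93.3% and 5.73% in WB replicate 1.

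Gene by gene the values stood side by side as follows. EPHA3 had a log2FC of 1.12 at 45 days or under and 1.12 at 49 days with mild WS, RGCC 2.09 and 2.66, MMP9 3.85 and 5.08, and CKMT2 -0.95 and -2.89. For KRT13, GRAMD1B and ABCG1 the log2FC at 49 days was 0.51, 0.36 and 0.31, and for PAPSS2 it was -0.64. At 49 days with moderate WS no probe was called (0.00%, smallest adjusted p = 0.280, limma), and 4181 had p up to 0.05 before adjustment. There the slow, cardiac and embryonic list had a median log2FC of 1.09, the macrophage list 0.82 and the respiratory chain -0.14, beside 2.08, 1.36 and -0.57 with mild WS.

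Tests of the difference between the contrast at 45 days or under and each contrast at 49 days called no probe (0.00%, limma, smallest adjusted p = 0.0655 against mild WS and 1.00 against moderate WS). Before adjustment 2981 and 1234 of 34515 probes had p up to 0.05. The smallest adjusted p belonged to UCP3, a mitochondrial uncoupling protein of muscle, which was singled out after its values were seen. UCP3 had 53019, 37724 and 85908 in WB birds of 45 days or under, against 68882, 49748, 40982 and 28977 in non-WB birds (log2FC 0.10 ± 0.32). At 49 days with mild WS it had 8393 and 5974 in WB birds, against 129107, 68882 and 75650.3 in non-WB birds (log2FC -3.63 ± 0.36). PDK4, the kinase that turns off pyruvate dehydrogenase, had 53804, 31267 and 82288 in the WB birds, against 23776, 23776, 31558 and 48876 in the non-WB birds, with a log2FC of 0.99 ± 0.49, and -3.22 at 49 days with mild WS. The difference of its contrasts was 4.21 ± 0.73, with an adjusted p of 0.289.

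Genes near background in one group cannot pass the filter on dim probes and were looked at apart, with no test. On the 7 arrays, of 56401 probes each, 38 probes were well above background in all WB birds and in no non-WB bird, and 14 the other way round. With a bound of at least 2-fold and a mean signal of 100 or more 1 remained, LOC107052718, at least 8.70-fold higher in WB, with means of 121 in WB birds and 3.32 in non-WB birds. The bound compares the WB mean with the higher of the faintest signal well above background and the probe's own signal on each non-WB array. Without WB replicate 3 the numbers were 622 and 61, of which 4 and 0 met both criteria. WB replicates 1 and 2 had the brightest arrays and the most spots well above background (75.3% and 76.4%, against 71.1% to 74.9% in non-WB birds). The part of array signal in these counts was not tested.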

How the data were processed

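One-color arrays were read from the scanner files deposited by the authors, whose signal intensity had been background-subtracted and detrended by Agilent Feature Extraction 10.7.1.1, per the file headers. The authors' series table of normalized intensity values was used as an alternative only. Spots of 1 probe were averaged, giving 56401 probes. Of these, 25956 had a gene symbol (13912 genes, RefSeq annotation). The precision of a comparison is limited by the number of arrays.

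Probes well above background with a signal of 20 or more on all 19 arrays of the WB arm were kept and quantile normalized, and log2 values were fitted with limma 3.58.1 (R 4.3.3) with group and slide as factors. All arrays were scanned on the same day. Values were adjusted by Benjamini-Hochberg over all probes tested, and DEGs had an FDR up to 0.05 and at least a 1.2-fold difference. The scripts were tested on simulated data. Genes near background in either group were described without a test. The probe with the highest mean signal stood for a gene, and list members were matched by symbol or a listed alias. Named were the 12 genes with the smallest p in each direction, up to 5 genes of each list with the largest absolute log2 fold change, markers, and genes said to be chosen after their values were seen. Further members of lists that were called, or that separated the groups, were named after their values were seen. The members and lists were chosen with earlier results of these data known. The labels name separate birds, not their farms or flocks, and p-values measure the spread between these birds. Alternatives changed the background correction, normalization, filter, slide term, samples, test and birds. Normexp used median spot signals.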

Additional observations from a re-analysis of the deposited data

Results flagged for a closer look

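In 9 of 159 named genes 1 non-WB bird lay far from the other 3 (4 high and 5 low), by a gap that chance gives in about 1 in 20 groups of this size, or 7.95 of 159, so that their number is about what chance gives. Non-WB replicate 4, the bird on the other slide, was apart in 5 of them. It was high for HEPH (2961, others 1620.2 to 1796), AGTPBP1 (831, others 422 to 458) and TGFB3 (28695, others 24312 to 24804), and low for PDIA4 (1443, others 1789.6 to 1856) and MYOD1 (10646, others 30640.0 to 33636). Non-WB replicate 1 was low for FBN3 (381, others 587 to 620.1) and high for FBLN1 (1637, others 598 to 694). Non-WB replicate 2 was low for CKMT2 (111984, others 137720 to 142556) and for PLK1 (209, others 520.3 to 556).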

How the results depend on the processing

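WB replicate 3 decided how many probes were called. Leaving out 1 bird at a time gave 0 to 4316 DEGs, with 4316 without WB replicate 3 and 0 without any other bird. Chosen after seeing the data, leaving out WB replicate 3 gave 5447 DEGs with no slide term and 3439 with its 6 arrays alone. Array weights gave 4836 DEGs, a fit of all 40 arrays 25, no detection filter 1 (a probe without a gene symbol), and detection in at least one group 2 (IPP, which was not well above background in non-WB birds, and a probe without a gene symbol). The other alternatives gave 0. With ComBat 1 probe passed with no |FC| criterion and 328 at an FDR of 0.2. Distinct list members called were 102 with array weights, 1 with all 40 arrays (PPP1R3A) and 0 to 103 over the birds left out, with 103 without WB replicate 3. Of 159 named genes 81 were called with array weights, 79 without WB replicate 3 and 5 with all 40 arrays (MAOB, NCOA5, BTN1, PPP1R3A and PRRG3). Over all genes, 7.68% were called higher and 5.75% lower without WB replicate 3. Array weights called 4836 of 34515 probes, and the fit of all 40 arrays 25 of 34462. The named genes were picked in part by p or log2FC in these same birds, so that their calls are no separate support. The difference from the contrast at 49 days with mild WS had 8 calls with all 40 arrays, 3 with array weights, 3 with no detection filter, 2 with detection in at least one group, 1 with no slide term, 1 with slide as a random block and 0 to 1 over the birds left out (1 without WB replicate 2). UCP3 was among them except with no detection filter. The difference from moderate WS had 1 call, IPP, under each of these detection filters. The contrast at 49 days with mild WS called 3642 probes, against 6636 with all 40 arrays, 11527 with array weights, 8194 without WB replicate 3 (8204 with no slide term as well), 2563 with no detection filter and 1624 with the replicate number as a block, and between 3036 and 4404 under the other alternatives and birds left out. Probes near background that met both criteria numbered 2 with normexp and 1 to 4 over the birds left out when WB was bright, and 0 to 3 when non-WB was bright (3 without WB replicate 2).

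Some log2FC turned sign. With all birds these ranged from near 0, as for TNNT3, to -0.66 for PLIN1 and 0.60 for BHLHE40. PLIN1 and BHLHE40 each turned sign with a single bird left out. That of TNNT3 was -0.00336 with normexp, -0.047 with percentile scaling, -0.0560 with array weights and -0.026 to 0.039 over the birds left out. With array weights CD8A was 0.29, FABP4 0.67 and CDH5 0.057. FABP4 was 0.071 with all 40 arrays and HBAD -0.031 with percentile scaling. MYOD1 was 0.11 with no slide term, with the 7 arrays alone and in the methods' t-test, and 0.12 with slide as a random block. Over the birds left out the range was -0.65 to 0.27 for CD8A, -0.39 to 0.54 for FABP4, -0.90 to 0.72 for HBAD, -0.57 to 0.66 for HBA1, -0.56 to 0.61 for HBBA, -0.00974 to 0.96 for BHLHE40, -0.13 to 0.48 for IFIH1, -0.25 to 0.063 for PECAM1, -0.76 to 0.047 for PER3, -1.18 to 0.016 for PLIN1 and -0.31 to 0.0076 for TAL1. The causes were not tested. The median log2FC over the slow, cardiac and embryonic list lay between 0.72 and 2.37 under all alternatives, that of the macrophage list between 0.52 and 1.31 and that of the respiratory chain between -0.38 and -0.15. The collagen median lay between 0.11 and 0.53. Medians that turned sign were those for matrix glycoproteins (-0.04 to 0.53), TGF-beta (-0.014 to 0.17), adipocyte (-0.17 to 0.28), hypoxia (-0.055 to 0.11), erythrocyte (-0.62 to 0.39), proteolysis (-0.083 to 0.061), heat shock (-0.03 to 0.17), cell division (-0.09 to 0.56) and interferon genes (-0.13 to 0.36).

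Same-numbered WB and non-WB birds deviated from their group means with correlations of -0.072, 0.050 and -0.003 over probes. Birds of different numbers had correlations between -0.079 and 0.109. These values gave no sign of pairing by replicate number, but so few birds cannot exclude it. With the replicate number as a block 0 DEGs were called (limma, smallest adjusted p = 0.222), and 0 of the 159 named genes changed call. The main fit had called no probe either, so these counts say little about pairing.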

Other observations

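IPP, a protein of the kelch family, fell outside the filter on dim probes and was singled out after its values were seen. In birds of 45 days or under it was well above background in all 3 WB birds (32.8, 46.8 and 97.3) and in none of the 4 non-WB birds (5.39 to 7.31). In birds of 49 days the order was the other way round. With mild WS it had 18.5 and 8.30 in the WB birds, against 52.6, 61.4 and 34.4 in the non-WB birds, and with moderate WS it had 3.19 to 5.06 in the 3 WB birds, against 30.2 to 63.3 in the 4 non-WB birds. The signals are low in every group, and other probes for this gene were not examined.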
